A study of Mus musculus with 12 samples.

Results

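Expression of Amy1 and of 8 genes of glycogen metabolism was examined in the left ventricle, 9 of the 26921 genes in the count table. The 8 are Gyg, Gys1, Gbe1 and Ugp2 of glycogen synthesis, Pygm and Pygb of glycogen breakdown, Gaa of the lysosome, and Ppp1r3c, a regulatory subunit. The set was chosen by function with the genotype difference of these libraries already known, and Amy1 was singled out for the size of its difference, so the genotype values of the 9 genes are given as a description. Rows were found by matching the gene identifiers to symbols in GENCODE M21, whose coordinates are those of GRCm38. RNA was sequenced from 16-week-old mice, 6 WT and 6 cmGch1 KO, with 1 library per animal. Both genotypes carried floxed Gch1 alleles on each copy (Gch1 flox/flox), and cmGch1 KO mice carried in addition 1 copy of a Cre recombinase driven by the promoter of α-myosin heavy chain (α-MHC), which is active in cardiomyocytes. Gch1 encodes GTP cyclohydrolase 1, the first enzyme in the synthesis of tetrahydrobiopterin. A group with Cre and no floxed allele is not analysed here, so the deletion and the presence of Cre cannot be told apart.

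Glycogen is a branched polymer of glucose that heart muscle keeps as a reserve of fuel. Its synthesis starts on the protein glycogenin, is extended by glycogen synthase from UDP-glucose and is branched by the branching enzyme, while phosphorylase releases the glucose again and acid α-glucosidase degrades the glycogen that reaches lysosomes. Phosphorylase kinase and the glycogen-bound forms of protein phosphatase 1 (PP1) set the activity of synthase and phosphorylase. Amylases cut the α-1,4 bonds of starch and glycogen, and are best known as secreted enzymes of the salivary gland and pancreas.

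The promoter windows of 3 genes are shown. These are Amy1, which had the largest genotype difference of the set, and Pygm and Pygb, which had the highest levels per length. Each window was taken from RefSeq on GRCm38.p6, runs from 250 bases before to 50 bases after an annotated start, and is written 5′ to 3′ on the strand of the gene. Capitals mark a match, on either strand, to 1 of the motifs searched. These were TATAAA (the TATA box), CACGTG (the palindromic E-box), ACGTG (the core that hypoxia-inducible factors bind, which is also part of that E-box), AAGGTCA (the element of oestrogen-related receptors), TGATGNAAT (the element of ATF4 with its partners) and GGGCGG (the GC box). Amy1 has 2 windows, with annotated starts at 113577750 and 113574762 of chromosome 3.
Amy1 upstream start (chr3:113577701-113578000, minus strand): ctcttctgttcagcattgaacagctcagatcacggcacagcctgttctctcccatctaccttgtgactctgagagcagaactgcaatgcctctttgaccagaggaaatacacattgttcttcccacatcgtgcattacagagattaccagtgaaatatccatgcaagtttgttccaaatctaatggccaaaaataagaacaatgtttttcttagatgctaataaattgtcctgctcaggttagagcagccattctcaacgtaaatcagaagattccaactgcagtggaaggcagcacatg
Amy1 downstream start (chr3:113574713-113575012, minus strand): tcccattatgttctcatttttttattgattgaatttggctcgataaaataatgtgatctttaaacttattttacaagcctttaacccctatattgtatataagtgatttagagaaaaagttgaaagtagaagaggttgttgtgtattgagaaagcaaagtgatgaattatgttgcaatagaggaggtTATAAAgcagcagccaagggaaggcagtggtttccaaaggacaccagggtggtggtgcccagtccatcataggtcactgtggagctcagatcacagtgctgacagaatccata
Pygm (chr19:6384158-6384457, plus strand): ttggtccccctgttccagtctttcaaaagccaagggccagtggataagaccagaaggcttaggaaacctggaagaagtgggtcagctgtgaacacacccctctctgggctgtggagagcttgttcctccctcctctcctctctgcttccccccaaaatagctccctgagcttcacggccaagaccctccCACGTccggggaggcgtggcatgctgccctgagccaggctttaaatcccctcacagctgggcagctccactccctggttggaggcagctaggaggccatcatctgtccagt
Pygb (chr2:150786546-150786845, plus strand): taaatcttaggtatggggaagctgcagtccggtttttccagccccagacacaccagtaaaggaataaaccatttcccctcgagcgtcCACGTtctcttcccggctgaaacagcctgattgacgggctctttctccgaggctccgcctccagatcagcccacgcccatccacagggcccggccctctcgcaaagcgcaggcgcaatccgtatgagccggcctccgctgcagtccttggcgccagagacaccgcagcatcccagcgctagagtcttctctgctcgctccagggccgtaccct

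The upstream Amy1 window held none of the motifs, and the downstream one held TATAAA, which begins 63 bases before the start. TATAAA is present in 13.6% of the 32851 windows in the RefSeq table. The Amy1 windows were rich in A and T, with a GC content of 42.7% and 38%, against a median of 52.7% over all windows, whereas those of Pygm and Pygb were at 58.7% and 60.7%. Pygm and Pygb each held ACGTG on the opposite strand, as 19.6% of all windows do. All 9 genes matched the RefSeq table, with 11 windows in all. Of these, 6 held ACGTG, 3 held CACGTG (those of Gyg, Gaa and Ppp1r3c, against 7.15% of all windows) and 5 held GGGCGG (35.7% of all windows), and none held AAGGTCA or TGATGNAAT. A match is a run of letters and does not show that a factor binds there.

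Totals ranged from 19921398 to 37917806 counts per library. Levels are given in cpm, which is counts scaled to the library total and then adjusted by the TMM method of edgeR, as mean ± SD with n = 6 per genotype. The 11225 genes with an unscaled cpm over 3 in at least 6 libraries were tested, and all 9 genes described here were among them. The targeted gene, Gch1, was at 10.7 ± 0.974 cpm in WT hearts and at 5.48 ± 0.855 cpm after the deletion, with no overlap between the genotypes (log2 fold change -0.96, adjusted p = 6.88e-04, edgeR's quasi-likelihood test). cmGch1 KO replicates 2 and 3 stood apart from the rest, with Xist at 86.7 and 99.1 cpm and 0 counts of 4 Y-linked genes, whereas Xist was at most 0.234 cpm in the other 10 libraries. Mitochondrial genes made up 14.9% and 16.1% of the counts in these 2 libraries and between 18.3% and 22.9% in the others. All 6 WT libraries and 4 of the 6 cmGch1 KO libraries had Y-linked counts, and the labels give no sex. Sex-linked expression was therefore not balanced between the genotypes, and its part in the genotype values was tested only through the fits without both libraries or with a covariate for it. Values without both libraries are given where they differ most.

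Amy1 (ENSMUSG00000074264) runs from 113555710 to 113606699 of chromosome 3, minus strand. In WT hearts its level was 10.5 cpm in the lowest library, 11.6 cpm at the median and 12.3 cpm in the highest. In cmGch1 KO hearts the corresponding values were 4.05, 4.32 and 5.16 cpm. Both genotypes formed tight groups with a wide gap between them, and the highest cmGch1 KO library, replicate 6, was still below the lowest WT library, replicate 5. The means were 11.5 ± 0.637 and 4.43 ± 0.429 cpm, so that 38.6% of the WT level was left (log2 fold change -1.37, standard error 0.09). Without cmGch1 KO replicates 2 and 3 the log2 fold change was -1.35.

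These levels rested on 270 to 423 counts of Amy1 in a WT library and on 88 to 187 in a cmGch1 KO library. The coefficient of variation between libraries was 5.55% in WT and 9.69% in cmGch1 KO hearts, where counting alone gives 5.42% and 9.23% at these depths. The spread of Amy1 between animals of 1 genotype was therefore close to that of counting. In the other 8 genes counting alone gives at most 2.73%, and the measured variation lay between 3.65% and 23.0%. The smallest difference in Amy1 among the alternatives tried was -0.92, on the log2-like values that the authors deposited.

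**Figure D1:**
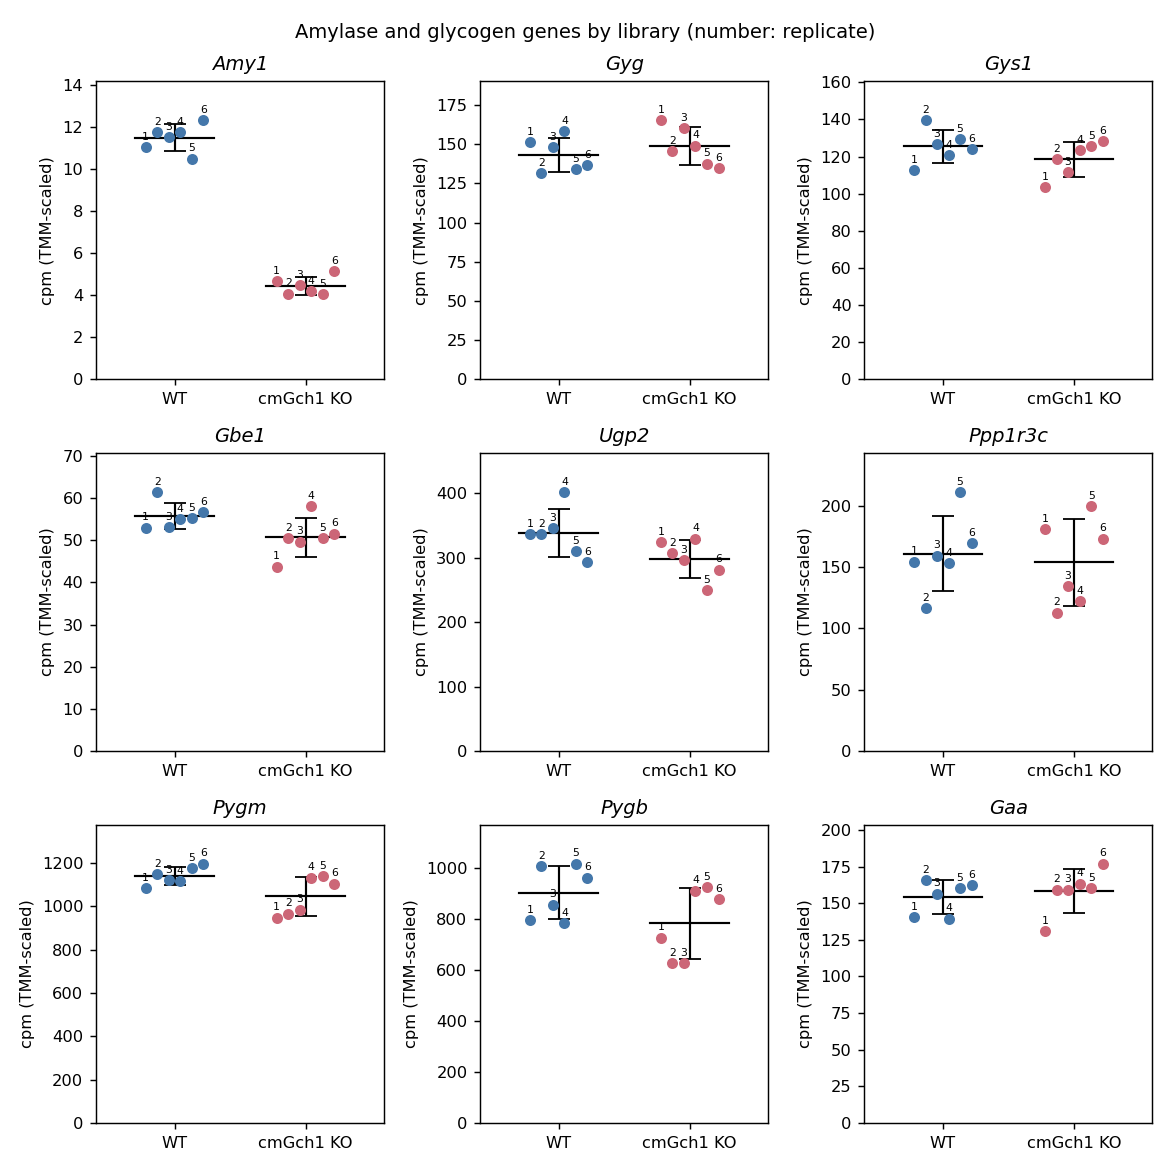
Level of each of the 9 genes in cpm (TMM-scaled, vertical axis from 0) in the 6 WT and the 6 cmGch1 KO libraries. Each point is 1 library with its replicate number above it, and the horizontal line and bar are the mean and SD. The genotypes are separate for Amy1 (at least 10.5 cpm in WT and at most 5.16 cpm in cmGch1 KO) and overlap for the other 8 genes.

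Amy1 is 1 of a cluster of amylase genes on chromosome 3, and the others are the pancreatic-type genes. Amy2a3 had 1 count over all 12 libraries and Amy2a5 had 0, which allows at most 0.00862 cpm over the 12 libraries, for counting error only. Amy2a1, Amy2a2, Amy2a4 and Amy2b are not analysed here. The longest Amy1 transcript was between 88.7% and 89.5% identical to those of the 6 listed amylase genes over the aligned bases, and 52 of its 1936 windows of 50 bases (2.69%) also occur in one of them. How the authors' counting treated reads that match more than 1 gene is not given in the sources used here.

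The gene next to Amy1 on the same strand is Rnpc3, which encodes an RNA-binding protein of the minor spliceosome. It runs from 113605067 to 113630149 and overlaps Amy1 by 1633 bases, through 1 of the 5 annotated Amy1 transcripts, whose start at 113606699 lies inside Rnpc3. Exons of both genes share 1128 of the 3446 merged exon bases of Amy1 (32.7%), so reads there cannot be told apart by strand. Rnpc3 was at 10.02 ± 1.46 cpm in WT hearts and 8.91 ± 1.32 cpm in the KO, and the genotypes overlapped (log2 fold change -0.16, adjusted p = 0.701, edgeR), with a log2 fold change of -0.05 without cmGch1 KO replicates 2 and 3. The ratio of Amy1 to Rnpc3 within a library lay between 0.897 and 1.43 in WT and between 0.398 and 0.581 in cmGch1 KO hearts.

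Markers of the pancreas and the salivary gland were near 0 in these libraries. Of 14 listed genes of the pancreatic acinar cell 11 are in the table, and together they summed to between 0.221 and 0.722 cpm in WT libraries and between 0.138 and 0.972 cpm in the KO. The trypsinogen gene Prss1 and the carboxypeptidase gene Cpb1 were among the 3 with 0 counts in every library. Of 10 listed salivary gland genes only 4 are in the table, and these summed to at most 0.222 cpm. The 7 liver genes summed to 44.9 cpm in WT replicate 2 and to at most 2.27 cpm in the other 11 libraries, and without WT replicate 2 the log2 fold change of Amy1 was -1.36. The 8 cardiomyocyte markers, such as Myh6 and Tnnt2, summed to between 57442 and 61497 cpm in WT libraries and between 51933 and 57868 cpm in the KO. Of these 8, 7 had a lower mean in the KO and the median change was -0.16 (log2), and none had an adjusted p under 0.05 by edgeR or an unadjusted p under 0.05. Of 6 macrophage markers 5 were tested, and each of the 5 had a higher mean (median log2 fold change 0.34). The unadjusted p by edgeR was under 0.05 for each, as for 11.5% of all tested genes in either direction, and none stayed under 0.05 after adjustment. In the lists of other cell types, all 6 fibroblast markers had a higher mean (median 0.11) and all 5 blood markers a lower one (median -0.39), with no adjusted p under 0.05 in either list. Acta2, an actin of smooth muscle (log2 fold change 0.66, adjusted p = 0.0067), Nppa, the atrial natriuretic peptide (1.53, adjusted p = 0.0240), and Mybpc2, a myosin-binding protein of fast skeletal muscle (0.80, adjusted p = 0.0067), were higher in the KO by edgeR. Each was the 1 gene of its list past the threshold, which 1.12% of all tested genes passed in either direction. Of the 6 smooth muscle and pericyte markers 4 were lower (median -0.07). Of the 4 atrial markers 1 was lower, Sln (-0.36). Of the 2 skeletal muscle markers tested 1 was lower, Ckm (-0.06). The part of any of these in the levels of the glycogen genes was not tested, and in whole ventricle fewer cells of a type and less RNA per cell cannot be told apart.

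Ugp2, which makes UDP-glucose, was the most abundant of the 4 synthesis genes per length of transcript. It lies on chromosome 11 from 21321138 to 21371201 (minus strand). Its level was 294, 337 and 403 cpm in the lowest, median and highest WT library and 250, 302 and 330 cpm in cmGch1 KO hearts. The genotypes overlapped, although 4 of the 6 WT libraries were above every cmGch1 KO library. The log2 fold change was -0.18 (standard error 0.09).

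Gyg, the glycogenin on which a new glycogen particle is started, was at 132 cpm in the lowest, 142 at the median and 158 in the highest WT library (chromosome 3 from 20122084 to 20155317, minus strand). The cmGch1 KO libraries ran from 135 cpm to 166 cpm with a median of 147, and the log2 fold change was 0.05 (standard error 0.07), or 0.03 without cmGch1 KO replicates 2 and 3. The 2 highest libraries were both cmGch1 KO, replicates 1 and 3, and the others were interleaved.

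Gys1, the glycogen synthase of muscle (chromosome 7 from 45434844 to 45456619, plus strand), was at 126 ± 9.03 cpm in WT hearts and 118 ± 9.44 cpm in the KO, with a log2 fold change of -0.08 (standard error 0.07). Gbe1, the branching enzyme (chromosome 16 from 70313949 to 70569716, plus strand), was at 55.7 ± 3.15 and 50.7 ± 4.57 cpm, with a log2 fold change of -0.14 (standard error 0.07). For both genes the lowest library was cmGch1 KO replicate 1 and the highest was WT replicate 2, and the genotypes overlapped. Gys2, the synthase of liver, was at 0.0095 cpm on average in WT and had 0 counts in all 6 cmGch1 KO libraries.

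Pygm, the phosphorylase of muscle, was the most abundant of the 9 genes (chromosome 19 from 6384399 to 6398459, plus strand). The 6 WT libraries lay between 1086 and 1198 cpm with a median of 1135. In cmGch1 KO hearts replicates 1, 2 and 3 were at 949, 967 and 986 cpm, and replicates 4, 5 and 6 were at 1133, 1141 and 1105 cpm. The first 3 were below every WT library and the other 3 were inside the WT range, and the means were 1142 ± 41.7 and 1047 ± 89.0 cpm.

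Pygb, the phosphorylase first described in brain and also made in heart, showed the same 3 libraries lowest (chromosome 2 from 150786735 to 150831758, plus strand). Its WT level was between 786 and 1019 cpm with a median of 911. cmGch1 KO replicates 1, 2 and 3 were at 728, 628 and 628 cpm, below every WT library, and replicates 4, 5 and 6 were at 913, 926 and 879 cpm. The log2 fold change was -0.21 (standard error 0.12) for Pygb and -0.13 (standard error 0.07) for Pygm. Without cmGch1 KO replicates 2 and 3 these values were -0.07 and -0.08. Replicate 1, the third of the low libraries, had neither the Xist counts nor the low mitochondrial share of the other two.

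Pygm made up 65.3% ± 2.01 of the 3 phosphorylases per length in WT and 66.7% ± 2.42 in cmGch1 KO hearts (SD, n = 6). The share of Pygb was 34.5% ± 2.02 and 33.1% ± 2.44, and that of Pygl, the phosphorylase of liver, was 0.138% ± 0.0224 and 0.193% ± 0.0251. The shares of Pygm and Pygb were thus nearly the same in both genotypes, while the small share of Pygl had a higher mean in the KO. The ranges of all 3 shares overlapped. For Pygl they did so only through WT replicate 4 (0.172%), since the other WT libraries were at most 0.148% and the lowest cmGch1 KO library was at 0.164%. The longest transcripts of Pygm and Pygb were 77.6% identical over 2516 aligned bases, and 13 windows of 50 bases occur in both, which is 0.46% of the windows of Pygm and 0.337% of those of Pygb. The other 6 glycogen genes shared no such window with any other gene.

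Gaa, the acid α-glucosidase of the lysosome (chromosome 11 from 119267887 to 119285454, plus strand), was at 139, 159 and 165 cpm in the lowest, median and highest WT library and at 131, 160 and 177 cpm in cmGch1 KO hearts. Both the lowest and the highest of the 12 libraries were cmGch1 KO, and the log2 fold change was 0.04 (standard error 0.08). Gaa is a lysosomal hydrolase, and 24 other genes of the lysosome, most of them hydrolases, were listed and tested. Of these, 21 had a higher mean in the KO and the median change was 0.07 (log2), while over all tested genes 53.3% were lower and the median was -0.01. None of the 24 had an adjusted p under 0.05 by edgeR, and for 4 of the higher ones the unadjusted p was under 0.05, where 11.5% of all tested genes had one in either direction.

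Ppp1r3c, the PP1 subunit called protein targeting to glycogen, varied most between animals of 1 genotype (chromosome 19 from 36731731 to 36736653, minus strand). Its level was 117, 157 and 211 cpm in the lowest, median and highest WT library and 113, 154 and 199.6 cpm in cmGch1 KO hearts. Its coefficient of variation was 19.0% in WT and 23.0% in cmGch1 KO hearts, where all tested genes had a median of 12.3% and 13.6%. The genotypes overlapped almost completely. The log2 fold change was -0.06 (standard error 0.16) and took the opposite sign without cmGch1 KO replicates 2 and 3 (0.07) and with scaling by library size alone (0.0050).

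Over the 9 genes, 7 had a lower mean in cmGch1 KO hearts and the median log2 fold change was -0.13. For the 8 glycogen genes without Amy1, 6 were lower and the median was -0.10. Amy1 was the 1 gene with an adjusted p under 0.05, beside 1.12% of all tested genes, and the 1 gene with no overlap below WT, beside 0.802% of all tested genes. Since the set was chosen with this comparison known, nothing is read from these counts.

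**Figure D2:**
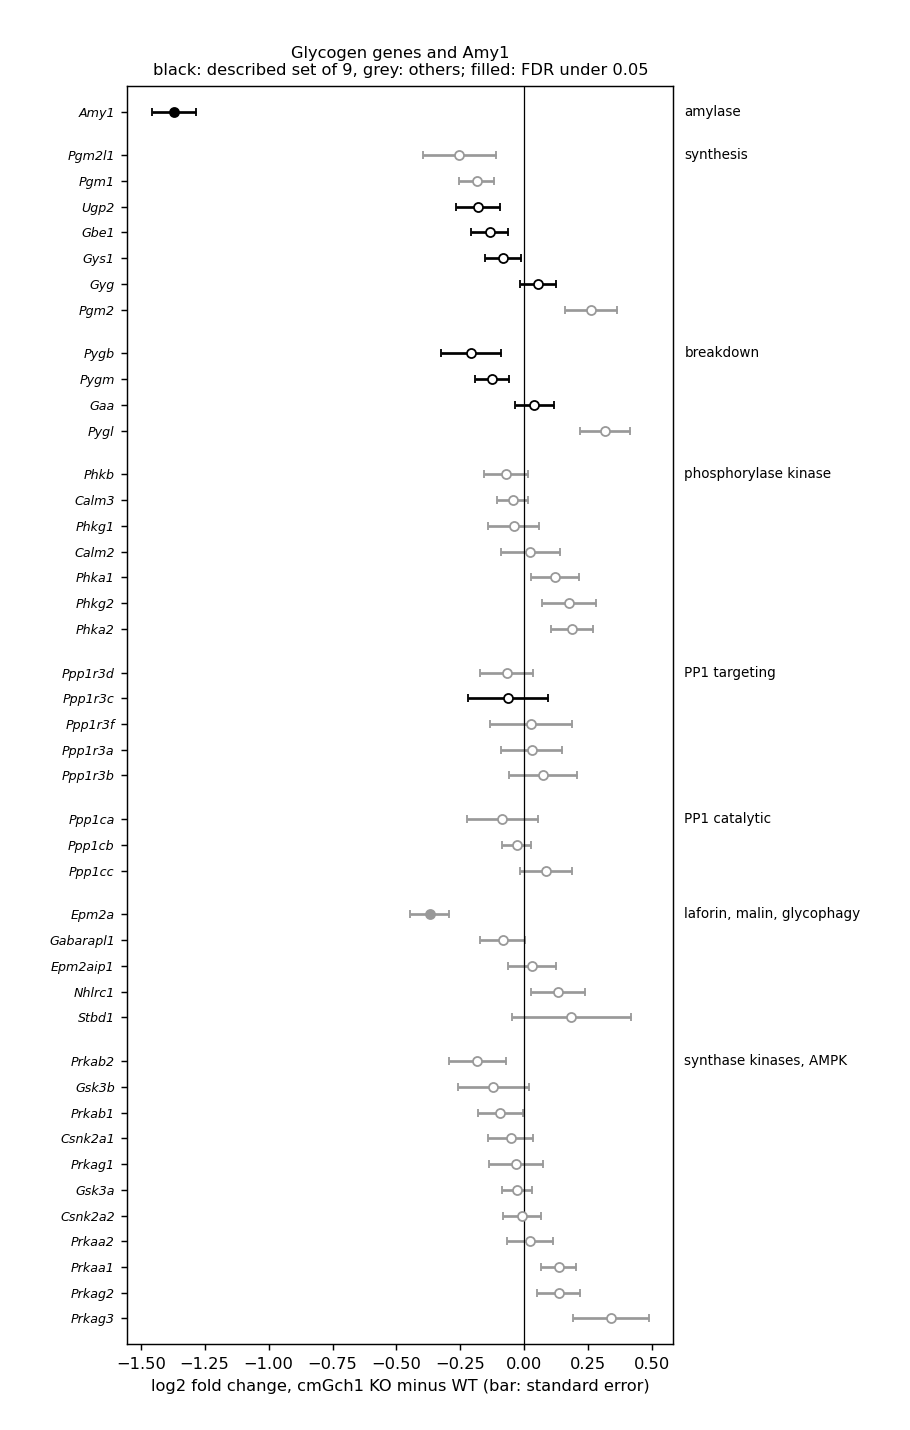
Log2 fold change from WT to cmGch1 KO (horizontal axis) for Amy1 and every tested gene of the glycogen lists, grouped by role, with the standard error as a bar. Black points are the 9 genes described, grey points the other genes of the lists, and filled points have an adjusted p under 0.05, which are Amy1 (-1.37) and Epm2a (-0.37).

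Of the other genes of the pathway 37 were listed, of which 34 were tested. Of these 34, 17 were lower and 17 were higher in cmGch1 KO hearts, and their median log2 fold change was 0.01. Only Epm2a had an adjusted p under 0.05 by edgeR, beside 1.12% of all tested genes in either direction. An unadjusted p under 0.05 was found for 2 lower and 4 higher genes, where 11.5% of all tested genes had one in either direction.

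Epm2a encodes laforin, a phosphatase that removes phosphate from glycogen and is lost in Lafora disease. It runs from 11343404 to 11459644 of chromosome 10, plus strand. Its level was 40.2, 41.4 and 47.0 cpm in the lowest, median and highest WT library and 28.3, 33.6 and 37.97 cpm in cmGch1 KO hearts. The genotypes did not overlap, with 77.3% of the WT level left. On the log2 scale the change was -0.37 (SE 0.08, adjusted p = 0.0302 by edgeR). An exact permutation test of the cpm, two-sided, gave p = 0.00216, the smallest p that 6 against 6 libraries allow. Every gene whose genotypes do not overlap gets this p, so it adds nothing to the lack of overlap. Of all tested genes, 0.802% had every cmGch1 KO library below every WT library. The adjusted p was 0.168 without cmGch1 KO replicates 2 and 3, 0.134 when sex-linked expression was a covariate and 0.0622 with scaling by library size alone, and 8 of the 12 fits that left out 1 library also missed the threshold. The log2 fold change stayed between -0.41 and -0.30 in all of these fits. Nhlrc1, which encodes malin, the ubiquitin ligase that acts with laforin, was not past the threshold (0.13, adjusted p = 0.735).

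Among the other enzymes listed none had an adjusted p under 0.05. Pgm1, the phosphoglucomutase that interconverts glucose-1-phosphate and glucose-6-phosphate, had the smallest p of the synthesis genes, at 208 ± 10.2 cpm in WT hearts and 183 ± 17.3 cpm in the KO (log2 fold change -0.19, adjusted p = 0.267). Pygl was at 5.15 ± 0.603 and 6.43 ± 0.437 cpm (log2 fold change 0.31, adjusted p = 0.182), the reverse sign of Pygm and Pygb.

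The subunits of phosphorylase kinase, which switches phosphorylase on, spanned a narrow range. Of the 7 genes listed 3 were lower and 4 were higher, with log2 fold changes from -0.07 for Phkb to 0.19 for Phka2 and a median of 0.02. Phka1, the regulatory subunit of muscle, was at 0.12, Phkg1 and Phkg2, the catalytic subunits, at -0.04 and 0.18, and Calm2 and Calm3, which encode calmodulin, also a subunit, at 0.02 and -0.05. Phka2 had the smallest p of the 7 (adjusted p = 0.402). Without cmGch1 KO replicates 2 and 3 the values were 0.04 for Phka1, 0.25 for Phka2, -0.10 for Phkg1, 0.24 for Phkg2, and of opposite sign for Phkb (0.01) and Calm2 (-0.09). With scaling by library size alone Phkg1 and Calm3 took the opposite sign.

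Of 7 subunits that target PP1 to glycogen 5 were tested, and their log2 fold changes lay between -0.07 and 0.07. Ppp1r3a, the subunit of striated muscle, was at 0.03, Ppp1r3b at 0.07, Ppp1r3d at -0.07 and Ppp1r3f at 0.03, and Ppp1r3d took the opposite sign with scaling by library size alone, while Ppp1r3e and Ppp1r3g were below the minimum of 3 cpm. Without cmGch1 KO replicates 2 and 3 Ppp1r3a was at 0.11, Ppp1r3d at -0.03 and Ppp1r3f, with the opposite sign, at -0.02. Of the 3 catalytic subunits of PP1, Ppp1cc had the smallest p (0.08, adjusted p = 0.852). Of 11 kinases that phosphorylate synthase, counting the subunits of AMP-activated kinase (AMPK), 7 were lower and 4 were higher, and Prkag3, an AMPK subunit, had the smallest p (0.34, adjusted p = 0.390), with 0.19 without cmGch1 KO replicates 2 and 3.

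Levels between genes were compared as cpm per kilobase of merged exons, over all 12 libraries. Pygm was highest at 340 ± 25.7 (SD, n = 12) and was followed by Pygb at 176 ± 27.9, Ugp2 at 104 ± 12.5, Gyg at 62.4 ± 4.84 and Ppp1r3c at 57.7 ± 11.6. Gaa was at 32.7 ± 2.71, Gys1 at 25.5 ± 1.99, Gbe1 at 9.94 ± 0.854 and Amy1 at 2.31 ± 1.08. The ranges of neighbours in this order overlapped for Pygb and Ugp2, for Gyg and Ppp1r3c, and for Gaa and Gys1, and did not overlap for the others. Within a library Pygb was above Ugp2 and Gaa above Gys1 in 12 of 12 libraries, so the order of these pairs held in each heart although their ranges met, whereas Gyg was above Ppp1r3c in 8 of 12. With the longest transcript as the length, Ppp1r3c was above Gaa in 9 of 12 libraries. Amy1 was the least abundant gene of the set in both genotypes.

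**Figure D3:**
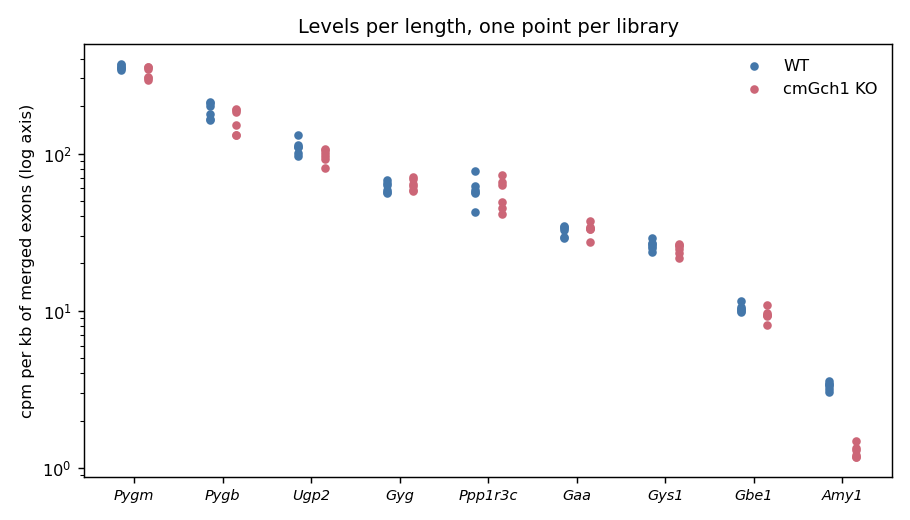
Level per length of the 9 genes, in cpm per kilobase of merged exons on a log axis, with 1 point for each of the 12 libraries (WT blue, cmGch1 KO red). Genes are ordered from Pygm (mean 340) to Amy1 (mean 2.31), and Amy1 is the gene whose genotypes do not overlap.

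Likeness between the genes was measured as Pearson's r of log2 cpm over the 12 libraries after the mean of each genotype was taken out. It is a description over libraries that share their scaling, without a test. Gys1, Gaa, Gbe1, Pygm and Pygb varied together, with r between 0.52 and 0.88 and the highest value for Pygm and Pygb. Gyg and Ugp2 varied together (0.71). Gyg varied against each of the 5 genes, with r from -0.85 with Gys1 and -0.84 with Gaa to -0.56 with Gbe1. Ugp2 was less opposed, with r between -0.53 and -0.37 for 4 of them and -0.06 for Gbe1. The transcripts of glycogenin, which starts a particle, and of synthase, which extends it, thus varied in opposite directions among libraries of 1 genotype. This was not particular to that pair, since Gyg was also opposed to Gaa (-0.84), Pygb (-0.72) and Pygm (-0.70). Gys1 was lowest in replicate 1 of each genotype (WT 113, cmGch1 KO 103 cpm). Its highest library was replicate 2 of WT and replicate 6 of cmGch1 KO. What the replicate number adds to these r was not tested, so a difference between hearts cannot be told from one between libraries.

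The r of Amy1 with the glycogen genes lay between -0.12 and 0.10. The 5 genes most like it among all tested genes were Narf (0.87), Txnip (0.81), Klf10 (0.79), Ehd1 (0.79) and Swt1 (0.79), where the median r was 0.01 and the lowest was -0.86. The spread of Amy1 within a genotype was close to that of counting, so all these values describe small deviations. They therefore cannot show whether Amy1 varied with the glycogen genes or apart from them. Between genotypes the adjusted p of the 5 genes most like Amy1 ran from 0.807 to 0.985 (edgeR).

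**Figure D4:**
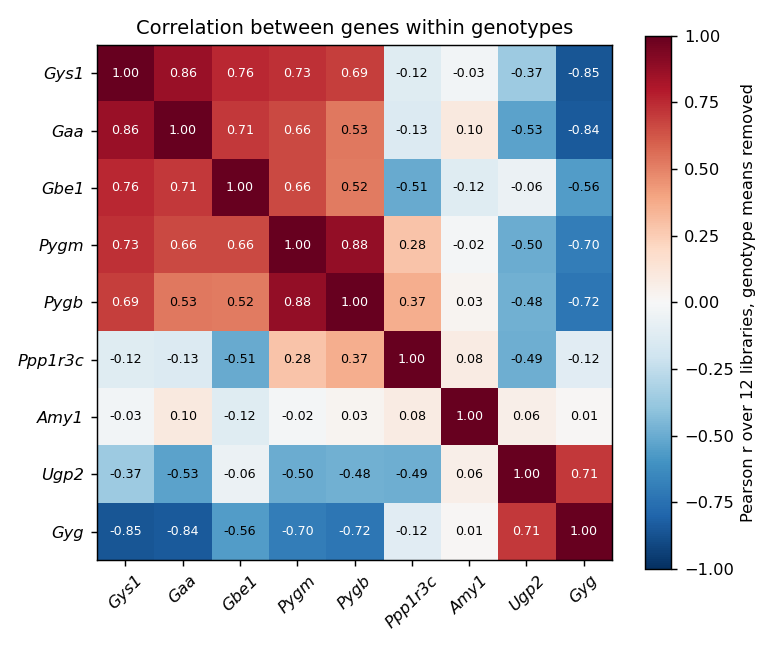
Pearson's r between the log2 cpm of each pair of genes over 12 libraries with the genotype means removed, from -1 (blue) to 1 (red). Gys1, Gaa, Gbe1, Pygm and Pygb form a block of positive values, Gyg is opposed to it (with Gys1 -0.85), and the row of Amy1 is near 0.

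The share of mitochondrial counts in a library moved with some of these levels within genotypes. Its r was 0.80 with Pygb, 0.66 with Pygm and 0.58 with Ppp1r3c, and between -0.24 and 0.28 with the other 6 genes, Amy1 among them (0.05). The share was lowest in cmGch1 KO replicates 2 and 3 (14.9% and 16.1%), where Pygb was lowest as well (628 cpm in each). How far these r rest on those 2 libraries was not tested. The tilt of each library with the GC content of transcripts had an r between -0.47, with Ppp1r3c, and 0.31, with Gaa. The part of mitochondrial share and GC content in the levels of these genes was not tested.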

How the data were processed

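The authors sequenced stranded paired-end libraries of left ventricular RNA. The submitters' processing notes name HISAT2, SAMtools and GRCm38. Which gene models were counted, and with what strand option, is not given in the sources used here. The authors deposited raw counts per Ensembl gene, used here, and normalized values on a log2-like scale, used as an alternative. Of 26921 identifiers, 26582 (98.7%) were in GENCODE M21. Totals ranged from 19921398 to 37917806 counts; a count of 0 allows 3 counts, for counting error only.

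Genotypes came from the labels. Counts were TMM-scaled and tested with edgeR 4.0.16 (quasi-likelihood test, cpm over 3 in at least 6 libraries, no covariate, Benjamini-Hochberg adjustment over all 11225 tested genes, threshold 0.05) in R 4.3.3. For Epm2a, genotype was also permuted exactly over the 924 ways to assign the 12 libraries. Transcripts were aligned with Biopython 1.88; a comparison of proteins is not analysed here. Alternatives were DESeq2 1.42.0 (size factors and Wald test), library size, other filters, a replicate block, sex-linked expression as a covariate, limma 3.58.1 on the normalized values, and leaving out libraries. The fits were tested on simulated data. No library was a copy of another of its genotype, since chi-square divided by its degrees of freedom was 12.5 to 78.9 between the counts of same-genotype libraries (30 pairs).

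The 9 genes and all lists were chosen with earlier results of these data known. The genes named are these 9, the amylases, each wider glycogen gene past the threshold or otherwise the smallest p of its list, Gys2, Pygl, the phosphorylase kinase and PP1-targeting subunits, Gch1, the 5 genes most like Amy1 and its neighbour; Nhlrc1, as the partner of Epm2a, and 3 cell type markers past the threshold were added after their values were seen. Some genes of these lists are not reported here.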

Additional observations from a re-analysis of the deposited data

Results flagged for a closer look

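The 2 groups of each of 27 named genes were examined by Dixon's ratio, 54 groups in all, and in 4 of them a single library stood apart from the other 5 of its genotype. Chance marks about 1 in 20 groups. None of the 9 genes described was among them. Pgm1 was at 216.7 cpm in cmGch1 KO replicate 4, with the nearest library at 183 cpm. Phka2 was at 21.7 cpm in the same library, with the nearest at 18.0 cpm. Prkag3 was at 6.84 cpm in cmGch1 KO replicate 3, with the nearest at 5.09 cpm, and Ppp1r3f was at 2.78 cpm in cmGch1 KO replicate 1, with the nearest at 4.56 cpm.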

How the results depend on the processing

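Amy1 kept its direction and an adjusted p under 0.05 in 10 of 10 other settings (log2 fold change -1.39 to -0.92) and in 12 of 12 fits without 1 library (-1.42 to -1.35), and 1 of the 9 genes was called in each. The order of the 9 genes per length was unchanged with the longest transcript (0 genes moved). The number of genes differing over all tested genes was 126, and became 373 with the DESeq2 Wald test, 62 with sex-linked expression as a covariate, 34 without cmGch1 KO replicates 2 and 3, and 72 to 207 without 1 library, the lowest being without WT replicate 3 (72), WT replicate 5 (73) and cmGch1 KO replicate 3 (78) and the highest without cmGch1 KO replicate 1 (207). With library size alone 23.7% of the called genes were lower, against 39.7%. Among the wider glycogen genes the 1 call, Epm2a, became 0 by edgeR with library size alone, with the replicate block, with sex-linked expression and without cmGch1 KO replicates 2 and 3, where 8, 5, 4 and 3 genes had an unadjusted p under 0.05, and by the DESeq2 Wald test it was 1. It was 0 to 1 without 1 library, and 0 without any 1 of WT replicates 2 to 6 or cmGch1 KO replicates 2, 3 or 5. The log2 fold change of Epm2a was -0.30 with library size, -0.37 with the block, -0.30 with sex-linked expression and -0.30 without both libraries. The cause was not tested.

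Signs turned only in genes with no call in any setting. With library size alone Ppp1r3c was at 0.0050, Ppp1r3d at 0.0013, Phkg1 at 0.0368 and Calm3 at 0.0286. With sex-linked expression Ppp1r3c was at 0.0696, Phkb at 0.0106, Calm2 at -0.0825 and Ppp1r3f at -0.0218, and without cmGch1 KO replicates 2 and 3 they were at 0.0698, 0.0104, -0.0885 and -0.0191. On the deposited normalized values Ppp1r3f was at -1.5e-05. Without 1 library the ranges were -0.154 to 0.0298 for Ppp1r3c, -0.0854 to 0.0230 for Phkg1, -0.0471 to 0.0744 for Calm2, -0.0380 to 0.0873 for Ppp1r3a, -0.0146 to 0.151 for Ppp1r3b and -0.0540 to 0.136 for Ppp1r3f.

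Some same-numbered libraries of the 2 genotypes deviated together, with r of 0.68, 0.40 and 0.51 for replicates 1, 5 and 6. For replicates 2, 3 and 4 the r was -0.09, -0.08 and -0.13. Of 6 WT libraries, 3 correlated best with their own number. The main fit has no term for the replicate number, and what such a number shares was not tested. With the replicate block 188 genes were called. At this depth Amy1 in cmGch1 KO hearts rests on 88 to 187 counts a library, and Gys2, Ppp1r3e and Ppp1r3g were too low to test.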
